A study of Homo sapiens with 6 samples.

Results

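The C/D box small nucleolar RNAs (snoRNAs) outside the SNORD113 to SNORD116 families were taken as every transcript cluster of the array whose only gene symbol begins with SNORD and a number, leaving out those 4 families. The rule found 98 clusters. Copies with identical values in all 6 arrays were merged, which left 85 clusters of 83 genes among the 67528 clusters measured, and these are the members described here. SNORD97, SNORD124 and SNORD32B each had 2 clusters with different values, and SNORD3B-1 and SNORD3B-2 shared their values. Another 60 clusters carried such a symbol together with that of another gene and were not members. SNORD118 (U8), SNORD22 (U22) and SNORD14C were found only in clusters of that kind, and so were the snoRNAs of imprinted regions such as SNORD64 and SNORD109A, so 0 members of the list of imprinted-region snoRNAs were present and the name of the set held.

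The cells were SCC25, a line derived from a human tongue squamous cell carcinoma. They were exposed to tunicamycin (TM), an inhibitor of N-glycosylation that causes endoplasmic reticulum (ER) stress, at 5 µg/mL for 6 h (n = 3), or to 0.1% DMSO for the same time as control (n = 3). Total RNA of each culture was hybridised to 1 Human Transcriptome Array 2.0, and each value is a log2 signal. The description of the series calls the 3 samples of each group independent biological replicates, and 1 label field of the TM samples names the cells SCC28 where the others name SCC25.

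C/D box snoRNAs are short nucleolar RNAs named after 2 conserved motifs, the C box and the D box. Each is bound by the core proteins NOP56, NOP58, fibrillarin (FBL) and SNU13, and most guide fibrillarin to the nucleotide of a ribosomal RNA (rRNA) or of U6 small nuclear RNA that becomes methylated on its ribose. A few, such as U3 (the SNORD3 copies), U13 (SNORD13) and U14 (the SNORD14 copies), are needed for the cleavage or modification of the precursor of the small-subunit rRNA. In human cells most lie inside introns of host genes, many of which encode ribosomal or nucleolar proteins or are noncoding SNHG genes, and they are released when the intron is spliced and trimmed.

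Stretches of 2 of these RNAs are shown because they carry the boxes that define the class; both come from RefSeq (GRCh38.p14, minus strand), and the capitals mark TGATG, the core letters of the C box, and in the first of them CTGA, the D box. SNORD58B, which is not a member but lies in RPL17 beside the members SNORD58A and SNORD58C, spans 66 bases at chr18:49491664-49491729. SNORD121B, a member in UBAP2, spans 79 bases, of which 61 were in the sequence table, at chr9:33934315-33934375. The bases not shown are at the end of the RNA, and no D box was marked in the rest.
SNORD58B: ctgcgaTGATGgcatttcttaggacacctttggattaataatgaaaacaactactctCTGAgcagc
SNORD121B: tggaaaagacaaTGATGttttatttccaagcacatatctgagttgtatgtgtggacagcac
The letters alone are not rare. TGATG was present on the sense strand in 4.59% of 35116 windows of 66 bases taken from human promoters (8.71% on either strand), and CTGA in 25.3% of them (44.7% on either strand).

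The arrays differed in ways that touch every value below. Their medians over all clusters lay between 5.39 and 5.52. DDIT3, which encodes the stress factor CHOP, was at 9.04, 8.88 and 5.86 in TM 1, 2 and 3, against 6.02, 6.01 and 9.28 in control 1, 2 and 3. HERPUD1, a gene of ER-associated degradation, was at 12.26, 12.16 and 9.34 with TM, against 9.64, 9.48 and 12.35 in control. TM 3 and control 3 were therefore near the level of the other group for both genes. Over all clusters, the deviation of an array from its group mean correlated at 0.29 and 0.40 between TM 3 and control 1 and 2, at 0.28 and 0.39 between TM 1 and 2 and control 3, and at -0.53 between TM 3 and control 3. The labels were kept, and the results over sets of members are given with all 6 arrays and with replicates 1 and 2 only (2 against 2). Markers of squamous epithelium were bright: KRT5, KRT14, CDH1 and DSG3 had values between 10.24 and 13.21. Of 8 measured markers of fibroblasts, leukocytes and endothelium, 6 were at 6.13 or less in every array, the exceptions being COL1A1 (up to 7.89) and CD68 (up to 11.08), and the defining leukocyte gene PTPRC was at 3.33 or less.

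With all 6 arrays, the members tended to be lower with TM. The log2 fold change (TM minus control) was below 0 for 71 of the 85 members, where 38.8% of all clusters were below 0. The array measures the sum of what binds a cluster's probes, so that mature snoRNA, its precursor and the host's intron cannot be told apart. Nor can less of the RNA in every cell be told from fewer cells of the culture that hold it. The median log2 fold change was -0.18 over the members and 0.04 over all clusters. By limma across all clusters, 0 members passed a Benjamini-Hochberg adjusted p of 0.05, as did 0% of all clusters. At an unadjusted p under 0.05, 31 members were lower (all clusters, 5.14%) and 0 were higher (all clusters, 15.3%). Of the 31, 22 also differed by at least 1.2-fold (all clusters, 1.68% lower and 4.24% higher by this rule). In 31 members each TM array was below each control array (all clusters, 7.49%), and in 0 members was the order the reverse (all clusters, 20.5%). The 2 sets of 31 shared 27 members. Both sets rest on the same values, and their overlap was not counted over all clusters, so it adds no separate evidence. The balance over all clusters moved with the scaling: at an unadjusted p under 0.05, 3473 clusters were lower and 10351 higher as deposited, 5063 and 5751 after quantile normalization, and 9612 and 3726 with each array centred on its median, while the members were 31, 35 and 51 lower and 0 higher in each.

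With replicates 1 and 2 only, the same direction was seen with larger differences. The median was -0.23 over the members and 0.04 over all clusters, and 75 of the 85 members were below 0 (all clusters, 41.3%). TM 1 and 2 were both under control 1 and 2 in 61 members (all clusters, 24.5%) and both over them in 3 (all clusters, 36%). By limma, 8 members fell at an adjusted p of 0.05 (all clusters, 0.675% lower) and 0 rose (all clusters, 0.546% higher). At an unadjusted p under 0.05, 45 members were lower (all clusters, 12.1%) and 0 higher (all clusters, 14.8%). Leaving out a further array of these 4 ended the calls of all 8, except that SNORD14E remained without control 1.

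The members were also read array by array. The median deviation of the members from their own 6-array mean was -0.13, -0.15 and 0.01 in TM 1, 2 and 3, against 0.14, 0.08 and 0.03 in control 1, 2 and 3. TM 2 was the lowest of the 6 arrays for 42 members and TM 1 for 24. Control 1 was the highest for 34 and control 2 for 25. No such counts were made over all clusters, so a trait of the arrays cannot be told from one of the members. TM 3 was below control 3 for 45 of the 85 members. The share over all clusters was not counted, and over all clusters TM 3 had the highest median (5.52) and control 3 the lowest (5.39).

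**Figure D1:**
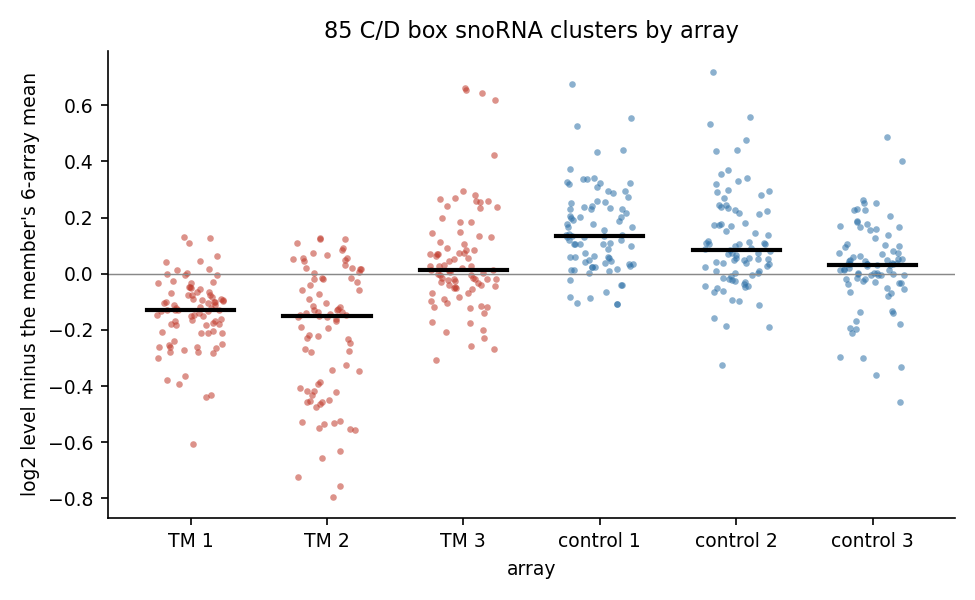
Each point is 1 of the 85 C/D box snoRNA clusters, plotted by array (TM 1 to 3, then control 1 to 3) as its log2 level minus its own mean over the 6 arrays, and the black lines are medians. The medians of TM 1 and 2 (-0.13 and -0.15) are below 0, those of control 1 and 2 (0.14 and 0.08) above it, and those of TM 3 and control 3 (0.01 and 0.03) almost level.

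The members with the smallest p over all 6 arrays were picked by these same values, so a separation of their groups follows largely from that choice. In each of them the highest TM value was under the lowest control value. SNORD72, a guide to the large-subunit rRNA that lies in the ribosomal protein gene RPL37, had values of 5.80, 5.64 and 5.76 with TM, against 6.19, 6.28 and 6.25 in control. Its log2 fold change was -0.50 ± 0.06 (standard error), or 0.705 of the control level (limma, adjusted p = 0.143). SNORD18B, also a guide to the large-subunit rRNA, was at 5.58, 5.06 and 5.51 with TM, against 5.99, 6.03 and 6.11 in control. It lies in RPL4, and the difference was -0.66 ± 0.13 (adjusted p = 0.143). SNORD14B, a U14 copy in RPS13, was at 7.64, 7.63 and 7.76 with TM, against 8.05, 7.96 and 8.08 in control, a difference of -0.35 ± 0.06.

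The other 3 of these 6 members had the same order of arrays. SNORD42A, a guide to the small-subunit rRNA within RPL23A, was at 3.52, 3.33 and 3.50 with TM, against 3.78, 4.04 and 3.86 in control. These values are dim, as the array medians over all clusters were 5.39 or more. SNORD63 of HSPA9, which guides to the large subunit, was at 7.59, 7.33 and 7.79 with TM, against 8.19, 8.21 and 8.02 in control. SNORD12B, in the noncoding gene ZFAS1, was at 7.10, 6.73 and 7.06 with TM, against 7.45, 7.42 and 7.45 in control. The differences of these 3 were -0.44 ± 0.09, -0.57 ± 0.12 and -0.48 ± 0.10. In all 6 the groups did not overlap, and the adjusted p was 0.143 for each, so that none passed the threshold with 6 arrays. In replicates 1 and 2 their differences were -0.51 for SNORD72, -0.69 for SNORD18B, -0.36 for SNORD14B, -0.48 for SNORD42A, -0.74 for SNORD63 and -0.52 for SNORD12B, of which that of SNORD63 passed (adjusted p = 0.0475).

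The members that fell in replicates 1 and 2 were mostly others. SNORD14E, a U14 copy in the chaperone gene HSPA8, was at 6.32 and 6.20 in TM 1 and 2, against 7.60 and 7.64 in control 1 and 2. That is a log2 fold change of -1.36 ± 0.07, or 0.389 of the control level (limma, adjusted p = 0.00902), the largest of any member. In the replicate 3 arrays the order was the other way, with 7.19 in TM 3 and 6.59 in control 3. Over all 6 arrays the difference was -0.71 ± 0.36 (adjusted p = 0.304).

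SNORD14D, the other member in HSPA8, behaved likewise. It was at 8.62 and 8.61 in TM 1 and 2 and at 9.24 in TM 3, against 9.49 and 9.40 in control 1 and 2 and 8.99 in control 3. Its log2 fold change was -0.83 ± 0.06 in replicates 1 and 2 (adjusted p = 0.0205) and -0.47 ± 0.20 over all 6 arrays. SNORD121A, in UBAP2, was dim but followed the same order: 3.38 and 3.35 in TM 1 and 2 with 3.80 in TM 3, against 4.33 and 4.21 in control 1 and 2 with 3.56 in control 3. It fell by 0.90 in replicates 1 and 2 (adjusted p = 0.0196). SNORD4B, which guides to the small subunit and lies in RPL23A, was at 7.30 and 7.35 in TM 1 and 2 with 7.96 in TM 3, against 8.001 and 7.92 in control 1 and 2 with 7.54 in control 3. It fell by 0.63 (adjusted p = 0.0334).

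The remaining 4 calls kept their direction in the replicate 3 arrays, or came close to level there. SNORD58C, in RPL17, was at 6.20, 6.00 and 6.71 with TM, against 7.07, 6.93 and 6.89 in control. SNORD11, within NOP58 and a guide to the small subunit, was at 6.24, 6.09 and 6.72 with TM, against 6.87, 6.94 and 6.80 in control. SNORD111, a guide to the large subunit in SF3B3, was at 6.72, 6.73 and 7.07 with TM, against 7.21, 7.23 and 7.03 in control. In replicates 1 and 2 they fell by 0.90, 0.74 and 0.49 on the log2 scale (limma, adjusted p = 0.0351, 0.0351 and 0.0388); the fourth is SNORD63, given above.

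The replicate 3 arrays were not used in those 8 calls. TM 3 was below control 3 in 3 of the 8, SNORD58C, SNORD11 and SNORD63. TM 3 was nearer to the mean of control 1 and 2 than to that of TM 1 and 2 in 6 of the 8, and control 3 was nearer to the mean of TM 1 and 2 in 4. Over all 85 members, TM 3 was nearer to control 1 and 2 in 48, and control 3 was nearer to TM 1 and 2 in 23. Among the 61 members with TM 1 and 2 both under control 1 and 2, these counts were 37 and 16. No such counts were made over all clusters. For DDIT3 and HERPUD1, TM 3 and control 3 were each nearer to the other group, and the contrast with the members was not tested.

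**Figure D2:**
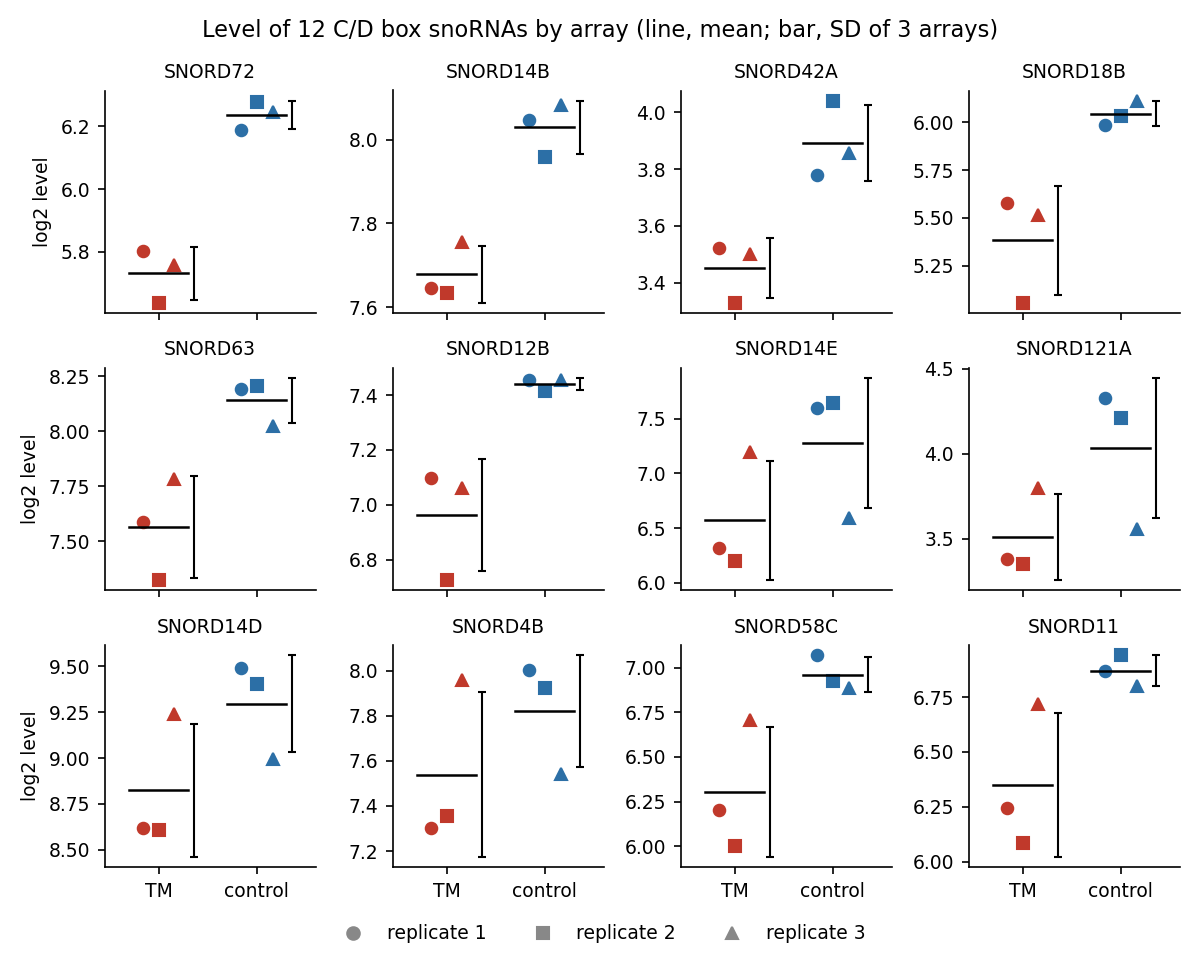
The log2 level of 12 snoRNAs in each array is plotted with TM left of control, and circles, squares and triangles are replicates 1, 2 and 3; lines are means and bars the SD of 3 arrays. In the first 6 panels (SNORD72 to SNORD12B) every TM array is below every control array, and in SNORD14E, SNORD121A, SNORD14D and SNORD4B the triangles of the 2 groups cross.

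**Figure D3:**
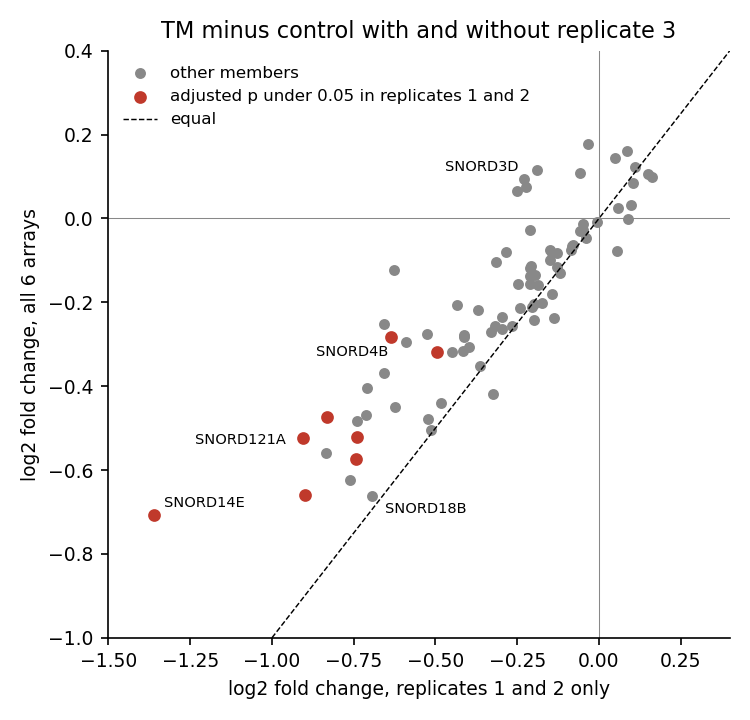
Each point is 1 of the 85 members, with its log2 fold change (TM minus control) in replicates 1 and 2 on the horizontal axis and over all 6 arrays on the vertical axis; red points are the 8 members past an adjusted p of 0.05 in replicates 1 and 2. SNORD14E is at -1.36 with replicates 1 and 2 and at -0.71 when the replicate 3 arrays are included, while SNORD18B (-0.69 and -0.66) is near the dashed line of equality.

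The snoRNAs of rRNA processing did not move as one. The 9 such members were the 4 U3 copies, U13 and 4 U14 copies. With all 6 arrays 0 passed the test, with 1 lower at an unadjusted p under 0.05 (all clusters, 5.14%), and the median was -0.03. With replicates 1 and 2 all 9 were below 0 (all clusters, 41.3%), the median was -0.23, and 3 were lower at that p (all clusters, 12.1%). Of the 9, 2 fell by limma at an adjusted p of 0.05, SNORD14D and SNORD14E (all clusters, 0.675% lower).

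U3 was set apart by TM 3 alone. SNORD3A, which directs cleavage of the rRNA precursor, was at 11.41, 11.10 and 12.13 with TM, against 11.42, 11.54 and 11.46 in control. SNORD3B-1, SNORD3C and SNORD3D followed the same course, with 11.92, 11.78 and 11.99 in TM 3 and 11.37 or less in every other array. The 4 copies are near-identical in sequence and their clusters are not independent of each other. Their differences were between 0.07 and 0.11 over all 6 arrays and between -0.25 and -0.19 in replicates 1 and 2, and none passed the test in either.

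U13 was nearly level. SNORD13, which directs acetylation of the small-subunit rRNA, was at 12.71, 12.77 and 12.73 with TM, against 12.81, 12.76 and 12.72 in control, a difference of -0.03 ± 0.05. U14 was lower in all 4 members, with a median of -0.41 over all 6 arrays and -0.60 in replicates 1 and 2. SNORD14A, the second copy in RPS13, differed by less than the others: 8.52, 8.63 and 8.50 with TM, against 8.72, 8.67 and 8.65 in control (-0.13 ± 0.06, adjusted p = 0.250).

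The 6 guides to U6 small nuclear RNA were all measured and none passed the test in either set of arrays. Their median difference was -0.08 with all 6 arrays and -0.21 with replicates 1 and 2. At an unadjusted p under 0.05, 1 was lower with all 6 arrays (all clusters, 5.14%) and 3 with replicates 1 and 2 (all clusters, 12.1%). The 1 was SNORD9, in CHD8, with differences of -0.28 ± 0.10 and, in replicates 1 and 2, -0.41 ± 0.06; the other 2 were SNORD94 and SNORD67, at -0.32 and -0.28 in replicates 1 and 2, and all 3 were chosen for mention after their values were seen. SNORD7 was at 5.59, 5.77 and 5.79 with TM, against 5.58, 5.68 and 5.45 in control, a difference of 0.15 ± 0.08. Of the 70 other members, most of them guides to rRNA, 29 were lower at an unadjusted p under 0.05 (all clusters, 5.14%) and the median was -0.21. In replicates 1 and 2, 39 were lower (all clusters, 12.1%) and the median was -0.23.

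No member rose. Besides SNORD7, the 5 members with the smallest p among those above 0 over all arrays were SNORD96B, SNORD121B, SNORD83A, SNORD123 and the dimmer cluster of SNORD124. SNORD96B, in AMMECR1, was at 4.92, 5.07 and 5.09 with TM, against 4.96, 4.85 and 4.78 in control (0.16 ± 0.07, adjusted p = 0.263). SNORD121B was at 4.40, 4.20 and 4.40 with TM, against 4.16, 4.21 and 4.25 in control. The groups overlap in both. SNORD83A, SNORD123 and SNORD124 differed by 0.11, 0.08 and 0.18, with adjusted p values between 0.438 and 0.494. In replicates 1 and 2 the rule added SNORD78 (0.09) and SNORD125 (0.10), whose differences over all 6 arrays were within 0.04 of 0.

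The 3 members with the highest mean value were SNORD13, SNORD105B and SNORD60, which is a ranking of brightness and not of the number of molecules. SNORD105B was at 11.96, 12.10 and 12.05 with TM, against 12.16, 12.16 and 12.14 in control. SNORD60, a guide to the large subunit in SNHG19, was at 11.68, 11.69 and 11.77 with TM, against 11.92, 11.86 and 11.82 in control. The groups did not overlap in either, and the differences were small (-0.12 ± 0.05 and -0.16 ± 0.05). Across the 85 members the Spearman correlation of mean value with log2 fold change was 0.26 (0.22 with replicates 1 and 2); the members share the same 6 arrays. The median difference was -0.26 in the dimmest 28 members, -0.24 in the middle 28 and -0.12 in the brightest 29, and in replicates 1 and 2 these were -0.36, -0.30 and -0.19.

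The members were next arranged by the host gene whose span in RefSeq contains them. A host was found for 78 members, in 52 genes, and 7 members, among them the U3 copies and SNORD13, had none. The median difference with all 6 arrays was -0.24 for the 15 members in ribosomal protein genes, -0.24 for the 47 in other protein-coding genes, -0.06 for the 10 in SNHG genes or GAS5, -0.20 for the 6 in other noncoding genes and 0.07 for the 7 with no host. At an unadjusted p under 0.05 the lower members were 8, 16, 3, 4 and 0 of these (all clusters, 5.14%). With replicates 1 and 2 the order changed: the medians were -0.20 in ribosomal protein genes, -0.32 in other protein-coding genes, -0.09 in SNHG genes or GAS5, -0.19 in other noncoding genes and -0.21 with no host, where all 7 were below 0. The lower members were then 8, 28, 4, 3 and 2 (all clusters, 12.1%). The differences between the classes were not tested.

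Hosts with several clusters were read next, though the 2 clusters of EIF4G2 were both SNORD97 and those of MED24 both SNORD124. Of 22 hosts with 2 or 3 of the clusters, 19 had all of them below 0 with all 6 arrays and 19 with replicates 1 and 2, in a set in which 71 and 75 of the 85 members were below 0 whatever their host. In 5 hosts all were lower at an unadjusted p under 0.05 with all 6 arrays: RPL4, RPL17, ZFAS1, NCL and ATP5F1B. There were 9 such hosts with replicates 1 and 2, and RPL4 was not among them. The hosts named here were chosen after their values were seen. In NCL, which encodes nucleolin, SNORD20 was at 5.28, 4.99 and 5.42 with TM, against 5.72, 6.08 and 5.77 in control, and SNORD82 at 8.96, 9.02 and 9.22 with TM, against 9.44, 9.36 and 9.25 in control. In RPL17, SNORD58A was at 8.52, 8.23 and 8.90 with TM, against 9.10, 9.09 and 8.88 in control, beside SNORD58C above. In RPL4, SNORD16 and SNORD18A differed by -0.20 each where SNORD18B differed by -0.66; in replicates 1 and 2 these were -0.17, -0.20 and -0.69.

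In some hosts the differences were unlike. In UBAP2, SNORD121A was lower and SNORD121B was not (-0.52 and 0.12 with all 6 arrays, -0.90 and 0.11 with replicates 1 and 2). The strand that each cluster reads was not checked, so these values may not come from the same strand. In WDR43, SNORD92 and SNORD53 were at -0.48 and 0.11 with all 6 arrays, but in replicates 1 and 2 both were below 0 (-0.74 and -0.06). In GAS5, SNORD75 was at 7.65, 7.34 and 7.70 with TM, against 7.83, 7.99 and 7.82 in control, whereas SNORD78 was at 10.01, 10.04 and 9.84 with TM, against 10.00, 9.87 and 10.02 in control. Over the 22 hosts the median distance between the lowest and the highest difference was 0.21 with all 6 arrays and 0.23 with replicates 1 and 2. These distances within a host were not tested.

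**Figure D4:**
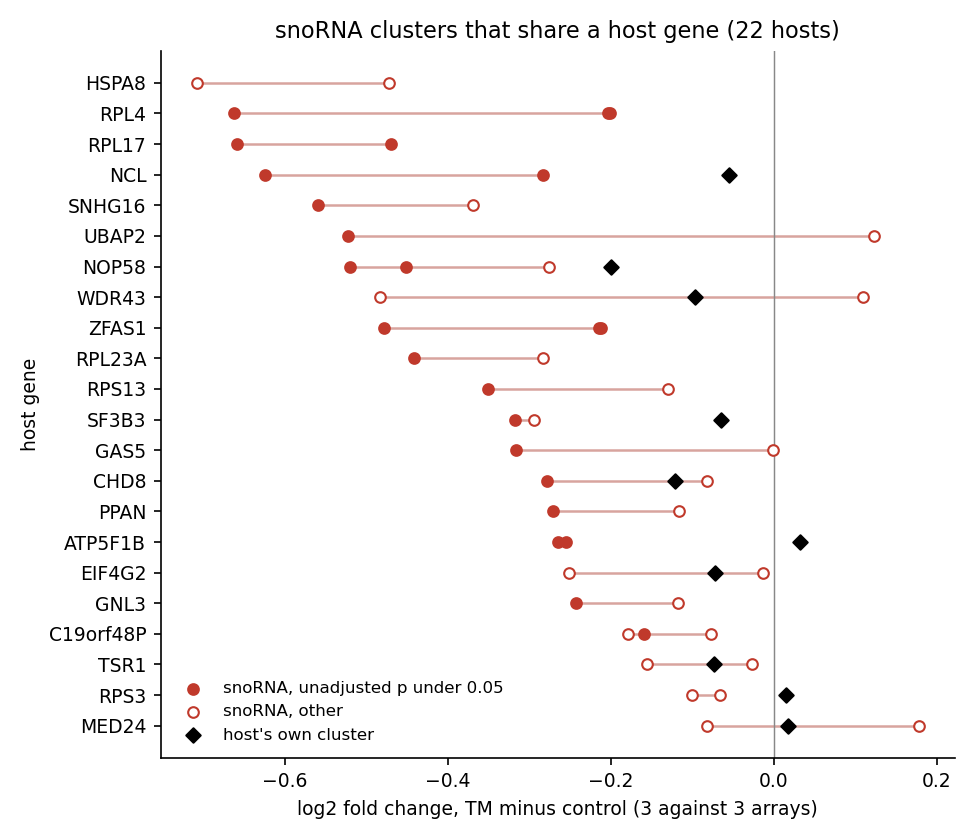
Circles are the snoRNA clusters of each host gene that holds 2 or 3 of them, at their log2 fold change (TM minus control, 3 against 3 arrays), filled where the unadjusted p is under 0.05; diamonds are the host's own cluster where it has one. In 19 of the 22 hosts every circle is left of 0, and the diamonds lie between -0.20 and 0.03.

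For 37 members the host had a cluster with no other symbol, which allowed both to be read. These hosts were mostly other protein-coding genes. Of the ribosomal protein genes only RPL37 and RPS3 had such a cluster, and no noncoding host had one. RPL4, RPL17, RPS13, RPL23A, HSPA8 and ZFAS1 were among those without, so the values below do not cover them. The 26 hosts had a median log2 fold change of -0.06, with a range of -0.20 to 0.04, while their 37 members had a median of -0.25. The medians with replicates 1 and 2 were -0.03 for the hosts, with a range of -0.31 to 0.18, and -0.32 for the members. Of these members 27 were below their host with all 6 arrays and 32 with replicates 1 and 2. Host and member differences had a Spearman correlation of 0.22 (0.26 with replicates 1 and 2) over the 37 pairs, which share 26 hosts and the same 6 arrays. In NCL the host was at 11.22, 11.18 and 11.20 with TM, against 11.23, 11.28 and 11.25 in control, a difference of -0.05 ± 0.05, while its snoRNAs differed by -0.62 and -0.28. In ATP5F1B the host differed by 0.03 and its snoRNAs SNORD59A and SNORD59B by -0.26 each. PTCD3 went the other way, at -0.20 with its SNORD94 at -0.10, though in replicates 1 and 2 they were at -0.31 and -0.32. These hosts were chosen after their values were seen. At an unadjusted p under 0.05 by limma with all 6 arrays, 3 of the 26 hosts were lower (all clusters, 5.14%) and 0 higher (all clusters, 15.3%).

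Host genes of snoRNAs often begin with a C followed by a run of pyrimidines, the TOP motif, which places translation of their RNA under growth control. Their start sites are shown because the hosts of several members are compared above. In RefSeq (GRCh38.p14) a C within 5 bases of the annotated start followed by at least 4 bases that are each C or T, read on the sense strand, was found in 19 of the 41 hosts in the promoter table (46.3%) and in 25.2% of all 27305 genes there. In the 30 bases below, the start is the eleventh base and the capitals mark that run. RPS13 is at chr11:17077648-17077677 (minus), RPL4 at chr15:66504836-66504865 (minus), ZFAS1 at chr20:49278632-49278661 (plus) and HSPA8, without a match, at chr11:123062117-123062146 (minus).
RPS13: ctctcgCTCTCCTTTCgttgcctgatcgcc
RPL4: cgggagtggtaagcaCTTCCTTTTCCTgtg
ZFAS1: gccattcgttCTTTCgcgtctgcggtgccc
HSPA8: ggaaaccggtctcattgaactcgcctgcag
The median difference was -0.20 for the 28 members in hosts with a match, 12 of them lower at an unadjusted p under 0.05, and -0.12 for the 32 members in hosts without one, 10 of them lower (all clusters, 5.14%). In replicates 1 and 2 the order was the other way, with medians of -0.21 and -0.26 and with 13 and 17 lower (all clusters, 12.1%). The difference between the 2 sets was not tested.

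The genes of proteins that bind or assemble C/D box snoRNAs had small differences. Of 14 genes listed, 13 had a cluster of their own (NOP56 had none), and 0 passed the test in either set of arrays. With all 6 arrays 5 were lower at an unadjusted p under 0.05 (all clusters, 5.14%) and 0 were higher (all clusters, 15.3%), and the median was -0.07. The counts with replicates 1 and 2 were 0 lower (all clusters, 12.1%) and 0 higher (all clusters, 14.8%), and the median was -0.03. NOP58, a core protein and the host of SNORD11, SNORD11B and SNORD70, was at 9.80, 9.68 and 9.70 with TM, against 9.90, 9.92 and 9.97 in control (-0.20 ± 0.06, adjusted p = 0.155). The other 4 lower with all 6 arrays were NUFIP1, ZNHIT6 and RPAP3, which take part in assembly, and the export adaptor PHAX, with differences between -0.20 and -0.14. FBL, the methyltransferase, differed by -0.02 and SNU13 by 0.08.

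Other classes of snoRNA were read in the same fit. At an unadjusted p under 0.05 with all 6 arrays, 31 of the 85 C/D box members were lower and 0 higher, against 12 lower and 4 higher among 87 clusters of H/ACA box snoRNAs and scaRNAs, which guide pseudouridylation or act in Cajal bodies (all clusters, 5.14% lower and 15.3% higher). The H/ACA box median was -0.10. In replicates 1 and 2 the 2 classes were closer. There 45 of the 85 C/D box members were lower and 0 higher. Of the 87 H/ACA box clusters, 38 were lower and 1 higher (all clusters, 12.1% lower and 14.8% higher). Their median was then -0.18, and by limma 4 of them fell at an adjusted p of 0.05 (all clusters, 0.675% lower). Among 90 clusters of the imprinted SNORD113 to SNORD116 families, most of them dim (median value 2.97), 4 were lower and 2 higher, with a median of -0.02, and in replicates 1 and 2 these were 6, 2 and -0.03. The differences between these sets were not tested.

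**Figure D5:**
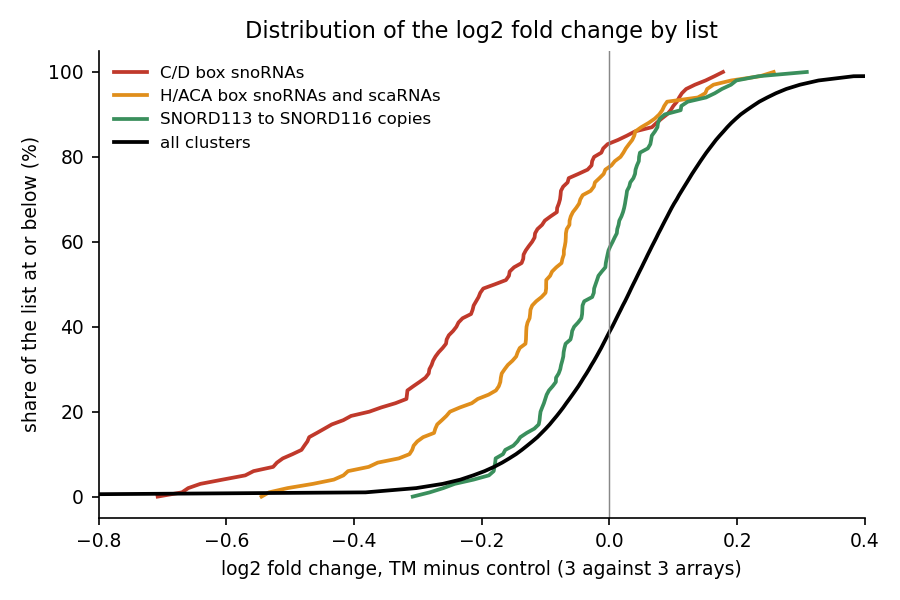
For each list the curve gives the share of its clusters (vertical axis, %) at or below each log2 fold change (horizontal axis, TM minus control, 3 against 3 arrays). The curve of the C/D box snoRNAs (red, median -0.18) is left of those of the H/ACA box snoRNAs (orange, -0.10), the SNORD113 to SNORD116 copies (green, -0.02) and all clusters (black, 0.04) at the medians, and the 3 snoRNA curves cross above 0.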

How the data were processed

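The deposited table holds normalized log2 signals for each cluster on each of the 6 arrays, with 0 columns of other samples. The submitters' processing notes name MAS5. The genome build and background correction were not given in the sources used here. Values entered every fit unchanged. Gene symbols came from the platform annotation: 23781 clusters had 1 symbol, 1543 several and 42204 none. Host genes were the genes in RefSeq (GRCh38.p14) whose span contains the snoRNA; the gene table gives no strand, so strand was not required. TM and control were compared by limma 3.58.1 (lmFit, eBayes, two-sided) in R 4.3.3 over all 67528 clusters, with Benjamini-Hochberg adjustment and a threshold of 0.05. On simulated data, with 100 clusters changed at each size, it recovered 45% of log2 changes of 0.5 and 92% of changes of 1. There were 8 false calls. The simulated spread was drawn from replicates 1 and 2 of each group. It left out the spread added by TM 3 and control 3, so these shares do not describe the fit of the 6 arrays. The number of arrays limits the precision.

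Members and lists were chosen with earlier results of these data known. The snoRNAs named were those of pre-rRNA processing, the 6 with the smallest p in each direction with all 6 arrays and with replicates 1 and 2, the 3 with the highest mean and any past the adjusted threshold; the others were named after their values were seen. The alternatives tried were another normalization, centring, a level filter, other variance settings, a replicate block, leaving out each array and leaving out both replicate 3 arrays. Replicate numbers were not used to pair samples. Python 3.11.15 (pandas 2.3.3, matplotlib 3.10.9) was used for tables and plots.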

Additional observations from a re-analysis of the deposited data

How the results depend on the processing

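The median difference of the members stayed below 0 under every setting tried (-0.25 with each array centred on its median, -0.22 to -0.14 with 1 array left out). No setting that used all 6 arrays, or 5 of them, gave a member past an adjusted p of 0.05, and the count was 8 with replicates 1 and 2 only. At an unadjusted p under 0.05 with a fold of at least 1.2, 22 members differed, all lower (all clusters, 1.68%). The 31 members lower at an unadjusted p under 0.05 became 51 with each array centred on its median, where 9612 of all clusters were lower in place of 3473, and 20 to 41 with 1 array left out, the lowest counts coming without TM 1 and without control 1 (20 each). Members higher at an unadjusted p under 0.05 numbered 0 to 2 with 1 array left out (all clusters, 9.51% to 15.2%). Centring shifted the median of all clusters to -0.03. The 8 calls of replicates 1 and 2 (all clusters, 0.675% lower) became 13 with centring (all clusters, 1.94% lower), an alternative chosen after seeing the data. All 8 were among the 13. They became 0 to 1 with 1 further array left out, which leaves a lone array assumed to vary like the other group.

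Same-numbered arrays did not deviate together, with correlations of -0.18, -0.31 and -0.53 over clusters. Between a replicate 3 array and replicates 1 and 2 of the other group they were 0.28 to 0.40. Because the replicate 3 arrays lay near the other group, these correlations cannot show whether the replicate block follows a pairing of the cultures. With the block, 24 members were lower at an unadjusted p under 0.05 (all clusters, 3.05%) and 0 passed the adjusted threshold (all clusters, 0%). In replicates 1 and 2 the block left 0 of the 8 calls (all clusters, 0.0148% lower).

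Signs turned for few of the 29 named members. With replicates 1 and 2 the differences were -0.22 for SNORD3A, -0.19 for SNORD3B-1, -0.25 for SNORD3C, -0.23 for SNORD3D, -0.032 for the dimmer cluster of SNORD124 and 0.089 for SNORD78. With quantile normalization SNORD125 was at -0.0040, SNORD13 at 0.021 and SNORD78 at 0.052, and with centring SNORD125 was at -0.039 and SNORD3C at -0.0052. With 1 array left out, the ranges were -0.22 to 0.30 for SNORD3A, -0.18 to 0.35 for SNORD3B-1, -0.24 to 0.30 for SNORD3C, -0.21 to 0.33 for SNORD3D, -0.026 to 0.092 for SNORD125 and -0.048 to 0.059 for SNORD78, and U3 turned without TM 3. The causes were not tested.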
